A study of Mus musculus with 12 samples.

Results

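The genes described here copy DNA or supply the nucleotides for it: 45 genes, of 16514 listed in the deposited tables, chosen by symbol from the known parts of the replication machinery. They fall into 7 roles: 12 genes of origin recognition and licensing, 8 of helicase activation, 6 polymerase and primase subunits, 7 of the sliding clamp and its loader, 4 of single-strand binding and Okazaki fragment joining, 4 of nucleotide supply, and 4 of chromatin assembly and DNA methylation upkeep. No measured value was used to choose them, although earlier results of these data were known. All 45 were listed in all 4 tables, and all passed the filter on low values in every comparison.

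RNA came from hearts of male C57Bl/6J mice, 12 weeks old, in 4 groups of 3 libraries. Transverse aortic constriction (TAC) narrows the aorta, so that the left ventricle pumps against a raised pressure; sham surgery leaves the aorta open. Control sham and control TAC mice ate a control diet that contains the branched-chain amino acids (BCAA: leucine, isoleucine and valine), and BCAA-free sham and BCAA-free TAC mice ate a diet that lacks them. Both diets carried 1% propionate, so no group shows either diet without propionate; feeding began 4 days before surgery and lasted until the hearts were taken 1 week after it. Whether each library stands for a mouse of its own is not stated in the labels. Spread between libraries, and any p-value built on it, may therefore include technical repeats.

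Replication starts when the origin recognition complex, with Cdc6 and Cdt1, loads the Mcm2 to Mcm7 ring onto DNA; the kinase Cdc7 with its partner Dbf4 and the loading factors Mcm10, Cdc45 and GINS then turn the ring into a working helicase. Primase and the polymerases copy the strands, the Pcna clamp holds them to the template, and Lig1 joins the short lagging-strand pieces. Most adult cardiomyocytes have left the cell cycle, whereas fibroblasts, endothelial cells and macrophages of the heart can divide. Many replication genes are transcribed in late G1 and S phase under the E2F factors.

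The depth was 29929161 to 46101244 reads assigned to genes per library, and a member held 5 to 2581 reads in a library. Levels below are given in CPM, the reads of a gene scaled to 1000000 reads assigned to genes in its library, and differences as log2 of the normalised reads plus 4, with the SE. Cardiomyocyte markers summed to 79984 to 91255 CPM, and all 10 of them were found in each of the 12 libraries. Control TAC replicate 3 held 255 CPM of liver genes, and the remaining 11 libraries 4.26 to 7.35 CPM (8 genes, of which 3 were listed for BCAA-free sham). Counts of called members are given with and without this library below. In whole hearts, fewer cells of a type and less RNA per cell cannot be told apart.

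As examples of upstream sequence with E2F words, 4 promoters are printed here from RefSeq (GRCm38.p6), each the 250 bases before an annotated gene start, read 5′ to 3′ on the gene's strand. Mcm5 and Mcm6 encode ring subunits and Uhrf1 a reader of hemimethylated DNA, and all 3 genes rose with TAC on the control diet; Pola1, the catalytic subunit of polymerase alpha, did not pass the test there. Capitals mark E2F words, searched as TTTCCCGC, TTTCGCGC, TTTGCCGC and TTTGGCGC on both strands; in Mcm5 and Mcm6 words of opposite strands overlap. The windows are chr8:75109259-75109508 on the plus strand (Mcm5), chr1:128359706-128359955 on the minus strand (Mcm6), chr17:56304063-56304312 on the plus strand (Uhrf1, the second of its 2 windows) and chrX:93632156-93632405 on the minus strand (Pola1). None of the 4 lies over an annotated exon.
Mcm5: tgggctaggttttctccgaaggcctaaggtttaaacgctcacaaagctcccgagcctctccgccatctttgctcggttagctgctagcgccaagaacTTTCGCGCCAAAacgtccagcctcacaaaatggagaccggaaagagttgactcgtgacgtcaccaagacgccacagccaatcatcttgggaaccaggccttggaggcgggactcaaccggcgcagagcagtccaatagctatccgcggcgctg
Mcm6: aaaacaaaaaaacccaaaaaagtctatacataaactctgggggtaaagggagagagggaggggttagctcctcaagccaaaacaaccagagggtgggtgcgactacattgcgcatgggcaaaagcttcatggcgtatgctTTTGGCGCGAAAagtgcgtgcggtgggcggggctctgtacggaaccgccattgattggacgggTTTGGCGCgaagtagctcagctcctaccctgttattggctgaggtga
Uhrf1: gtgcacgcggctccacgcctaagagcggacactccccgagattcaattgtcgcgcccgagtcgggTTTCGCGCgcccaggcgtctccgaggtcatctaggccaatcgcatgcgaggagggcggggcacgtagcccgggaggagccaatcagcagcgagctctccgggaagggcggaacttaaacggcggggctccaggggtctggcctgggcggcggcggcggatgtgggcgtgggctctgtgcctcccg
Pola1: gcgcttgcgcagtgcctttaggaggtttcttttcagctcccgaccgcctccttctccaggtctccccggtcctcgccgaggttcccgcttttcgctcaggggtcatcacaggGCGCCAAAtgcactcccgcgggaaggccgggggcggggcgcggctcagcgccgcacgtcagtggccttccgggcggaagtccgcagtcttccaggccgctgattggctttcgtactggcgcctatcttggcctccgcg

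The RefSeq promoter table held 37 of the 45 genes, in 46 windows. An E2F word stood in 10 of these 37 genes (27.0%). It stood in 3.58% of the 11652 promoter genes listed in any of the 4 deposited tables, and in 2.16% of all 27025 genes with a promoter. Members that rose with TAC on the control diet carried the words in 4 of 18 genes, and members that did not pass in 6 of 19. The word CCAAT was found in 24 of the 37 (64.9%, against 39.7% of those 11652 genes). The words TTTGAA and TTCGAA, which match the CHR element known from genes of late cell cycle stages, were found in 8 (21.6%, against 14.8%). These matches describe letters only. CCAAT stood in 12 of the 18 members that rose and 12 of the 19 that did not pass, and the CHR words in 2 of 18 and 6 of 19.

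With pressure overload on the control diet, 19 of the 45 genes rose and none fell (limma, adjusted p under 0.05). Across all 15873 genes tested, 3.4% rose and 1.94% fell. The median log2 difference was 0.49 for the 45 genes and 0.00 for all genes, 40 of the 45 lay above 0 (50.2% of all genes), and 11 rose at least 2-fold. On the table's normalised reads, the scale of every count of groups that do not overlap, the 3 control TAC libraries all lay above the 3 control sham libraries in 30 members, which was so for 14.5% of all genes; in none did they all lie below, where 13.6% of all genes did. The genes that rose came from every role: 5 of 12 in licensing, 3 of 8 in helicase activation, 1 of 6 among polymerases and primase, 2 of 7 at the clamp, 1 of 4 in Okazaki joining, 4 of 4 in nucleotide supply and 3 of 4 in chromatin upkeep. In CPM, 38, 39 and 32 members stood above every control sham library in control TAC replicates 1, 2 and 3, against 45.8%, 32.3% and 34.7% of 15665 genes with reads in all 12 libraries and a mean of at least 10.

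**Figure D1:**
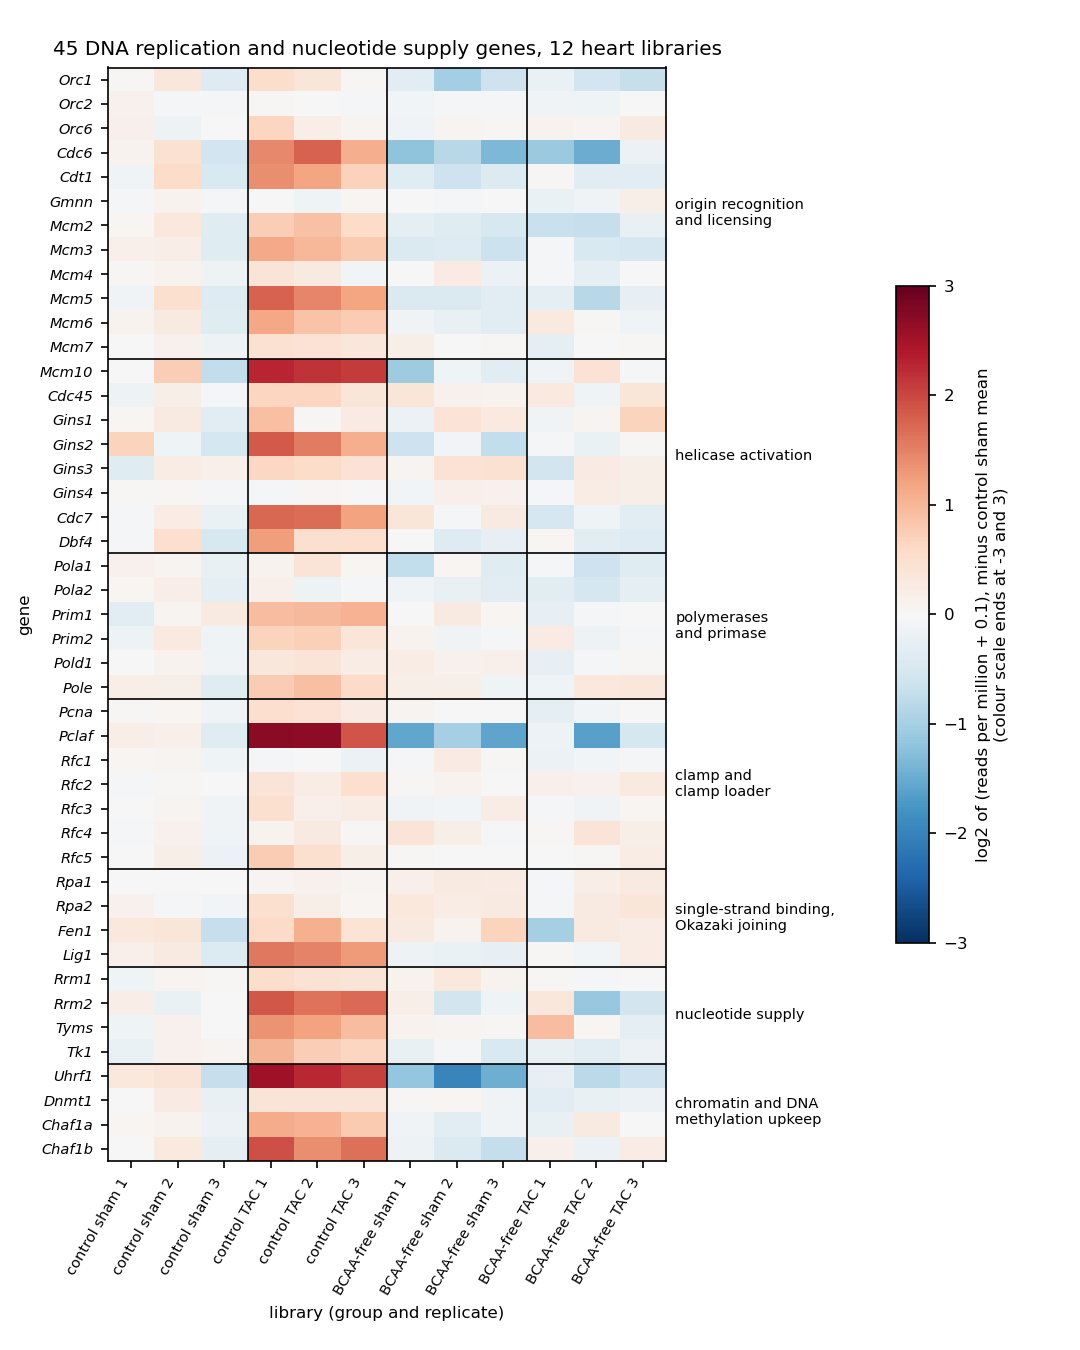
Level of the 45 genes (rows, by role) in the 12 libraries (columns), as log2 of CPM plus 0.1 minus the mean of the 3 control sham libraries; red is higher and blue lower. The 3 control TAC columns are red in most rows, with medians of 0.67, 0.55 and 0.41, and the 3 BCAA-free TAC columns have medians of -0.11, -0.11 and 0.00.

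Among the licensing genes, 4 of the 6 Mcm ring subunits rose. Mcm5 (ENSMUSG00000005410, chr8:75109569-75128439 in GRCm38, as all gene positions here) stood at 3.98, 6.07 and 3.26 CPM in control sham and 14.9, 12.1 and 9.80 in control TAC. It stood at 3.17, 3.13 and 3.35 in BCAA-free sham and 3.54, 2.35 and 3.58 in BCAA-free TAC. All 3 control TAC libraries lay above the other 9. With TAC on the control diet Mcm5 rose by 1.41 ± 0.21 (adjusted p = 0.00972), a 2.65-fold change. Mcm3 read 8.62, 8.91 and 5.98 CPM in control sham and 17.0, 15.5 and 13.3 in control TAC, then 5.65, 5.85 and 4.86 in BCAA-free sham and 7.42, 5.58 and 5.42 in BCAA-free TAC. Here too control TAC stood clear of every other library, and the rise on the control diet was 0.90 ± 0.15 (adjusted p = 0.0142). Mcm2 read 9.15, 11.01 and 6.86 CPM in control sham, 14.8, 16.4 and 13.1 in control TAC, 7.18, 6.87 and 6.32 in BCAA-free sham and 5.49, 5.45 and 7.55 in BCAA-free TAC, with control TAC above the other 9 libraries. It rose by 0.66 on the control diet and Mcm6 by 0.86 ± 0.16 (adjusted p = 0.0176), whereas Mcm4 and Mcm7, subunits of the same ring, gave 0.13 and 0.34 without passing. The loader Cdc6 rose by 1.36, and its partner Cdt1 gave 1.01 without passing. The origin recognition subunits Orc1, Orc2 and Orc6 gave 0.25, -0.07 and 0.24, and geminin (Gmnn), the inhibitor of Cdt1, gave -0.10, none past the threshold.

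In helicase activation, the kinase Cdc7 (ENSMUSG00000029283, chr5:106964322-106984432), which phosphorylates the Mcm ring, read 0.835, 1.03 and 0.744 CPM in control sham and 3.06, 3.0 and 2.14 in control TAC. On the BCAA-free diet it read 1.14, 0.847 and 1.05 in sham and 0.577, 0.783 and 0.672 in TAC. The 2 diets differ in order: TAC lay above sham on the control diet and below it on the BCAA-free diet, with no overlap on either. On the control diet Cdc7 rose by 1.47 ± 0.22 (adjusted p = 0.0101). Mcm10, a loading factor, rested on few reads, 5 to 23 per sham library and 78 to 99 per control TAC library. It stood at 0.401, 0.743 and 0.20 CPM in control sham, 2.35, 2.14 and 2.04 in control TAC, 0.139, 0.359 and 0.297 in BCAA-free sham and 0.357, 0.574 and 0.390 in BCAA-free TAC. Control TAC was again apart from the other 9 libraries, with a rise of 2.09 ± 0.35 (adjusted p = 0.0136), or 4.26-fold. Gins2, a GINS subunit, rose by 1.42 ± 0.33 (adjusted p = 0.0386); its fellow subunits Gins1, Gins3 and Gins4 gave 0.32, 0.47 and -0.06 without passing. Cdc45 and Dbf4 gave 0.49 and 0.68, also short of the threshold.

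Of the 6 polymerase and primase genes, 1 rose. Prim1, the catalytic primase subunit, read 1.47, 2.0 and 2.29 CPM in control sham, 3.68, 3.82 and 3.97 in control TAC, 1.92, 2.31 and 1.97 in BCAA-free sham and 1.57, 1.85 and 1.89 in BCAA-free TAC. Control TAC lay above all other libraries, and Prim1 rose by 0.91 ± 0.19 (adjusted p = 0.0299). Pole, the catalytic subunit of the leading-strand polymerase, read 3.37, 3.29 and 2.23 CPM in control sham, 5.01, 5.58 and 4.43 in control TAC, 3.28, 3.31 and 2.67 in BCAA-free sham and 2.66, 3.65 and 3.73 in BCAA-free TAC. The control TAC libraries did not overlap with any other, but the difference of 0.69 ± 0.19 missed the threshold (adjusted p = 0.0645). Pold1, catalytic in polymerase delta, gave 0.25 ± 0.09 (adjusted p = 0.129), with 16.9, 18.3 and 15.6 CPM in control sham, 21.3, 22.04 and 19.7 in control TAC, 19.7, 18.4 and 18.7 in BCAA-free sham and 14.2, 16.4 and 17.4 in BCAA-free TAC. Control TAC did not overlap with control sham in Pold1, and BCAA-free TAC lay below BCAA-free sham. Prim2, Pola1 and Pola2 gave 0.52, 0.12 and -0.08 without passing.

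Of the 7 genes of the clamp and its loader, 2 rose. Pclaf (ENSMUSG00000040204, chr9:65890237-65903266), a small protein that binds Pcna, read 0.902, 0.872 and 0.572 CPM in control sham and 5.56, 5.47 and 3.10 in control TAC. It read 0.195, 0.333 and 0.189 in BCAA-free sham and 0.687, 0.183 and 0.499 in BCAA-free TAC, from 7 to 25 reads per BCAA-free library. The 3 control TAC libraries were the highest and the rise of 2.35 ± 0.27 (adjusted p = 0.00373) was the largest among the 45 genes, 5.08-fold. The clamp gene Pcna was abundant, at 32.9, 33.1 and 29.8 CPM in control sham, 45.4, 43.2 and 38.0 in control TAC, 33.6, 31.9 and 31.4 in BCAA-free sham and 26.5, 30.0 and 31.9 in BCAA-free TAC. It rose by 0.34 ± 0.08 (adjusted p = 0.0423), with control TAC above every other library. None of the 5 loader subunits passed: Rfc2 gave 0.31 ± 0.09 (adjusted p = 0.0796), Rfc5 0.41, Rfc3 0.22, Rfc4 0.07 and Rfc1 -0.13.

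**Figure D2:**
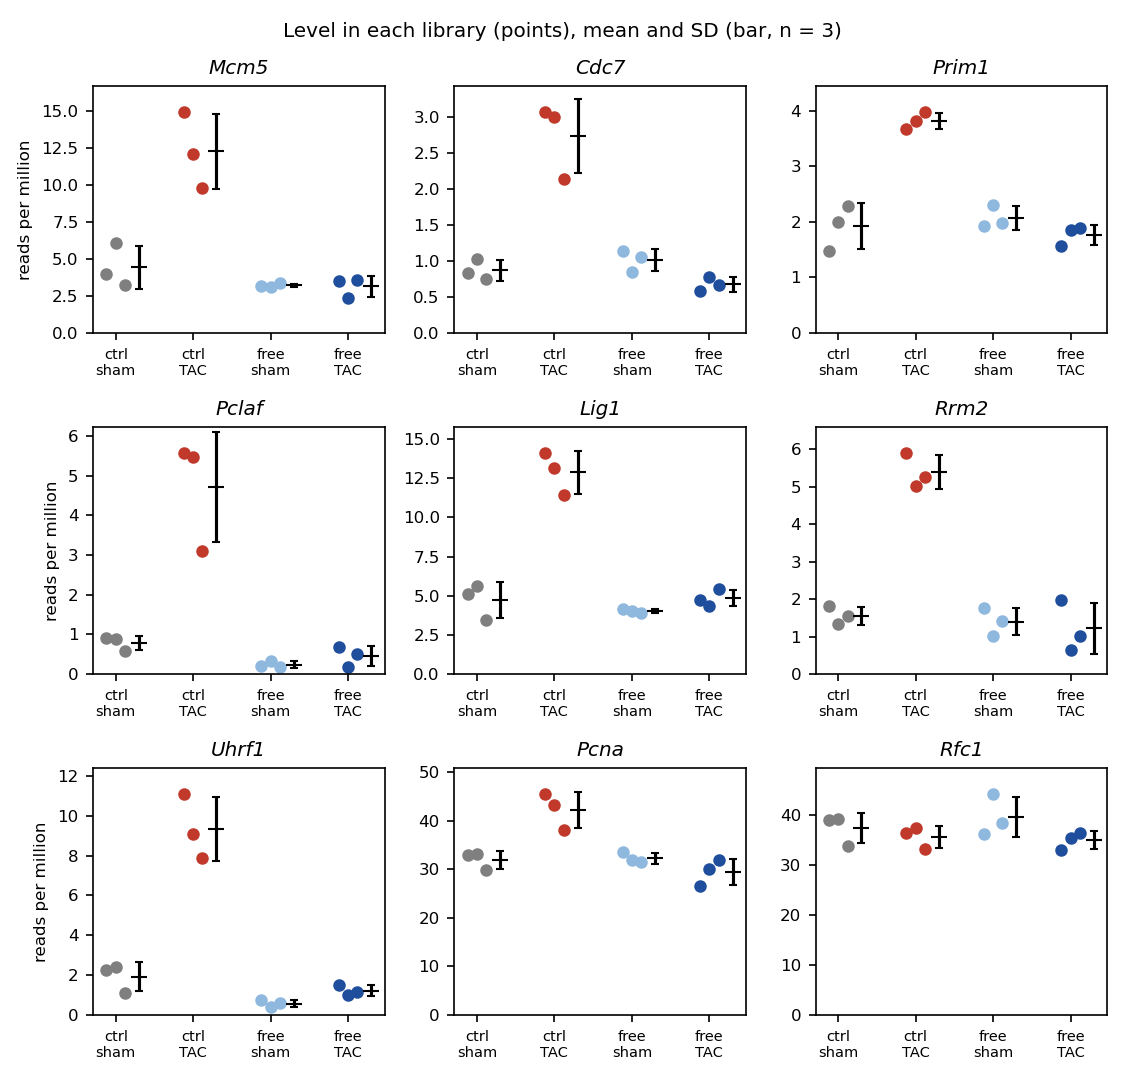
CPM of 9 members in each library (points), with the mean and SD of the 3 libraries of a group (bars); ctrl is the control diet and free the BCAA-free diet, and each panel has its own axis from 0. In 8 panels the 3 control TAC points lie above the other 9; in Rfc1, the large loader subunit, they do not.

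Lig1, which seals Okazaki fragments, read 5.11, 5.59 and 3.43 CPM in control sham, 14.1, 13.1 and 11.4 in control TAC, 4.17, 4.00 and 3.89 in BCAA-free sham and 4.75, 4.36 and 5.40 in BCAA-free TAC. It rose 2.62-fold with TAC on the control diet, by 1.39 ± 0.17 (adjusted p = 0.00460), and control TAC stood apart from the rest. Fen1, the flap nuclease that trims those fragments, read 1.64, 1.71 and 0.772 CPM in control sham, 1.97, 2.83 and 1.76 in control TAC, 1.59, 1.41 and 2.13 in BCAA-free sham and 0.604, 1.59 and 1.54 in BCAA-free TAC. Its difference of 0.61 ± 0.31 did not pass (adjusted p = 0.283), and control TAC overlapped with BCAA-free sham. The single-strand binding subunits Rpa2 and Rpa1 gave 0.17 ± 0.12 (adjusted p = 0.438) and 0.03.

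All 4 nucleotide supply genes rose. Rrm2 (ENSMUSG00000020649, chr12:24708241-24714146), the S-phase subunit of ribonucleotide reductase, read 1.80, 1.32 and 1.54 CPM in control sham, 5.89, 5.03 and 5.27 in control TAC, 1.75, 1.03 and 1.40 in BCAA-free sham and 1.98, 0.652 and 1.02 in BCAA-free TAC. No library of another group exceeded 1.98 CPM, the lowest of control TAC had 5.03, and Rrm2 rose by 1.67 ± 0.17 (adjusted p = 0.00281), the smallest adjusted p of the 45. The large reductase subunit Rrm1 read 12.9, 14.9 and 14.4 CPM in control sham, 20.4, 19.0 and 18.5 in control TAC, 15.1, 17.6 and 15.2 in BCAA-free sham and 14.3, 13.6 and 14.01 in BCAA-free TAC. Its rise was smaller, 0.39, but no control TAC library fell among the others. Thymidylate synthase (Tyms), which makes the thymidine nucleotide, read 1.60, 1.94 and 1.74 CPM in control sham, 4.61, 4.21 and 3.41 in control TAC, 1.89, 1.87 and 1.81 in BCAA-free sham and 3.43, 1.83 and 1.43 in BCAA-free TAC. Tyms rose by 1.09 ± 0.17 (adjusted p = 0.0119), with the first BCAA-free TAC library inside the range of control TAC. Thymidine kinase 1 (Tk1), of the salvage route, rose by 0.73 ± 0.14 (adjusted p = 0.0193).

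In the chromatin group, Uhrf1 (ENSMUSG00000001228, chr17:56303321-56323486), which brings Dnmt1 to newly copied DNA, read 2.27, 2.39 and 1.09 CPM in control sham and 11.1, 9.07 and 7.86 in control TAC. It read 0.751, 0.385 and 0.594 in BCAA-free sham and 1.51, 0.992 and 1.15 in BCAA-free TAC. The order control TAC, control sham, BCAA-free TAC, BCAA-free sham held for the group means; control sham replicate 3 fell into the BCAA-free TAC range. With TAC on the control diet Uhrf1 rose 4.65-fold, by 2.22 ± 0.26 (adjusted p = 0.00416). Chaf1b and Chaf1a, subunits of the factor that places histones on new DNA, rose by 1.58 ± 0.23 (adjusted p = 0.00933) and 0.91 ± 0.14 (adjusted p = 0.0104). Chaf1b read 0.735, 0.904 and 0.572 CPM in control sham, 3.04, 2.06 and 2.49 in control TAC, 0.640, 0.513 and 0.405 in BCAA-free sham and 0.824, 0.626 and 0.868 in BCAA-free TAC, with control TAC apart from the rest. The maintenance methyltransferase Dnmt1 gave 0.31 without passing.

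On the recovered reads edgeR called 17 members (4.61% of all genes) and DESeq2 22 (9.7%), adding Cdt1, Mcm7 and Pole. In the authors' deposited table none of the 45 fell and the number that rose was 22. The limma count of 19 dropped to 11 without control TAC replicate 1 and to 12 without replicate 2; without replicate 3, the library with the liver genes, it was 16. The count over all genes went from 848 to 400, 399 and 634. Gins2 and Chaf1a share 67.3% and 52.5% of their exon bases with a gene on the opposite strand (Gse1 and Ubxn6) and Fen1 78.8% (Gm10143). Whether reads were counted by strand is not given in the sources used here, so the values of these members are uncertain; 5 more (Orc1, Orc2, Rfc2, Rfc4 and Rfc5) share 10.7% to 29.8%.

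On the BCAA-free diet, TAC changed none of the 45 genes past the threshold by limma, by edgeR or by DESeq2, and 3 had an unadjusted p under 0.05 (Pold1, Uhrf1 and Dnmt1). In that comparison 4.32% of 15936 genes were called in either direction by limma, 4.19% by edgeR and 7.18% by DESeq2, and 21.4% had an unadjusted p under 0.05. The median of the members was 0.01, with 23 above 0 and 22 below (49.4% of all genes above 0). The TAC libraries all lay above sham in 5 members (Orc6, Mcm10, Rfc2, Lig1 and Uhrf1), where 14% of all genes did so. They all lay below in 7 (Cdc7, Pola2, Prim1, Pold1, Rfc1, Rrm1 and Dnmt1), where 12.7% of all genes did so. In CPM Mcm10, Pola2 and Rfc1 overlapped and Cdt1 did not. These shares are near the background.

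Uhrf1 had the largest difference on this diet, 0.98 ± 0.29 (adjusted p = 0.0829), with a 95% interval of 0.34 to 1.62. In licensing, Mcm6, Mcm7 and Orc6 came nearest with 0.29 ± 0.13 (adjusted p = 0.245), -0.16 ± 0.11 (adjusted p = 0.439) and 0.16 ± 0.13 (adjusted p = 0.502), and Mcm5 gave -0.04. In helicase activation, Cdc7 gave -0.51 ± 0.25 (adjusted p = 0.278), Mcm10 0.60 ± 0.36 (adjusted p = 0.377) and Gins2 0.42 ± 0.28 (adjusted p = 0.419). Pold1, Pola2 and Prim1 gave -0.24, -0.16 and -0.21 (adjusted p = 0.190, 0.409 and 0.561). Rfc1, Rfc2 and Pcna gave -0.17, 0.15 and -0.13 (adjusted p = 0.268, 0.328 and 0.426), and Pclaf 0.62. Lig1 gave 0.26 ± 0.14 (adjusted p = 0.296), Fen1 -0.51 (adjusted p = 0.425) and Rpa1 -0.07 (adjusted p = 0.681).

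The nucleotide supply genes, all raised on the control diet, gave -0.18 (Rrm1, adjusted p = 0.270), -0.27 (Rrm2, 0.703), 0.17 (Tyms, 0.777) and -0.01 (Tk1) on the BCAA-free diet. Intervals differed in width between members. The 95% interval of Rrm2 ran from -1.04 to 0.50, so changes up to these limits could have been missed. That of the clamp gene Pcna was narrower, from -0.32 to 0.06, and leaves room for small changes only. Dnmt1 gave -0.24 (adjusted p = 0.131) and Chaf1b 0.50 (adjusted p = 0.325). In CPM, BCAA-free TAC replicates 1, 2 and 3 exceeded every control sham library in 5, 8 and 11 of the 45 members, against 33.1%, 28% and 32.7% of the 15665 genes. They lay below every control sham library in 16, 15 and 8, against 29.0%, 33.9% and 25.7%.

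**Figure D3:**
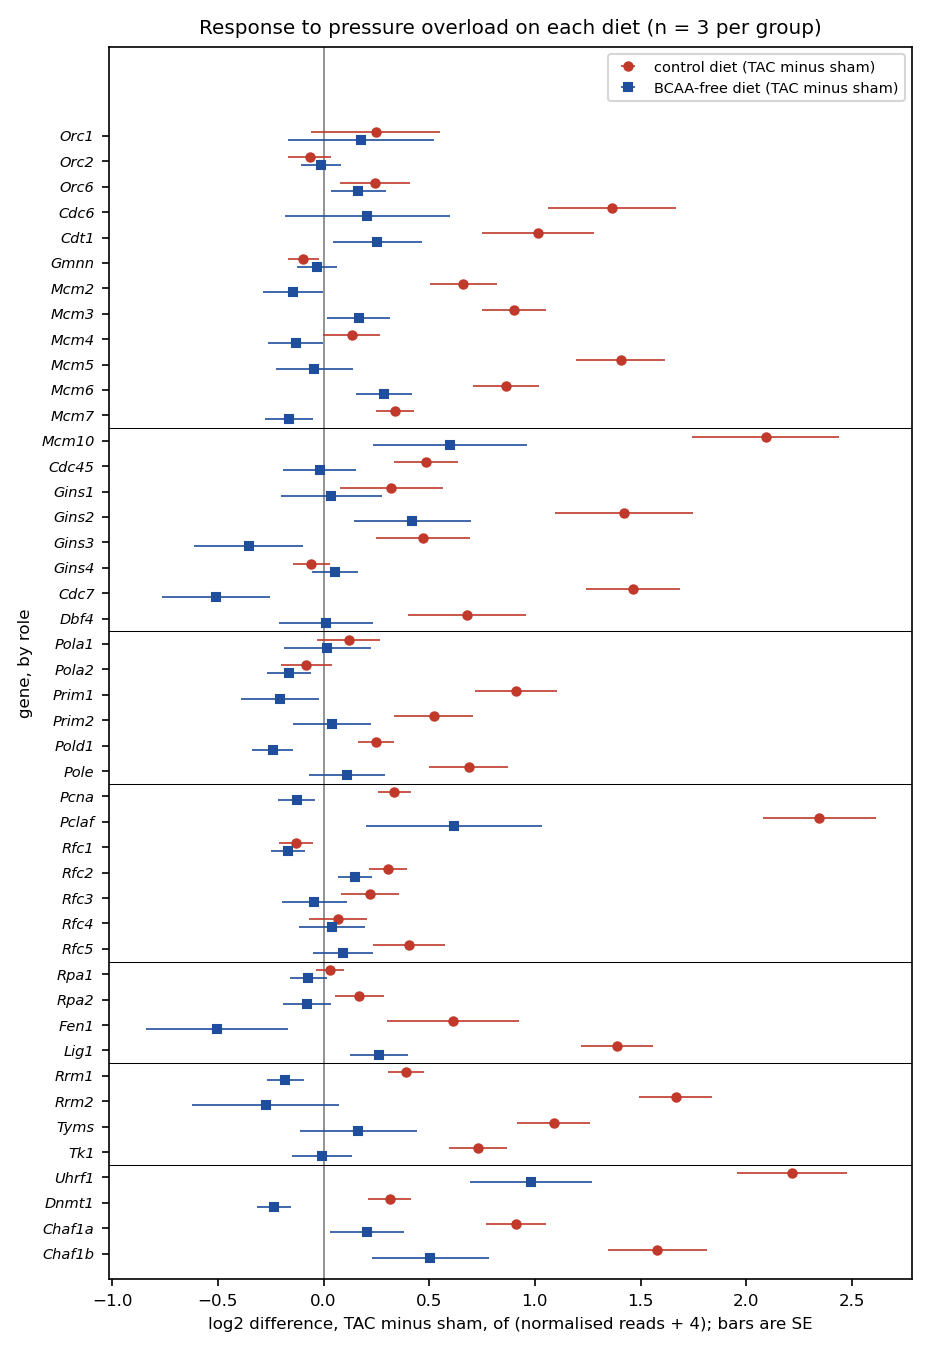
Log2 difference of TAC and sham with its SE for each of the 45 genes, on the control diet (red circles) and on the BCAA-free diet (blue squares), 3 libraries per group. On the control diet the points reach 2.35 (Pclaf), and on the BCAA-free diet they span -0.51 to 0.98.

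The difference of the TAC responses between the diets was tested directly over all 12 libraries. Of 15524 genes tested, 7 passed (0.0451%), and 1 of the 45 members was among them: Cdc7, whose response was lower on the BCAA-free diet by -1.97 ± 0.31 (adjusted p = 0.0433). In 42 of the 45 the response was lower on the BCAA-free diet, with a median difference of -0.57; over all genes 49.8% had a difference above 0. At an unadjusted p under 0.05 stood 27 members, all lower, against 10.1% of all genes.

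By role, the next members were Mcm5 (-1.45 ± 0.30, adjusted p = 0.126), Mcm2 (-0.81, 0.250) and Mcm7 (-0.50, 0.278) in licensing, and Mcm10 (-1.49, 0.311) and Gins3 (-0.83, 0.408) in helicase activation. Prim1, Pold1 and Pole gave -1.12, -0.49 and -0.58 (adjusted p = 0.162, 0.216 and 0.473). Pcna gave -0.46 ± 0.12 (adjusted p = 0.211), Pclaf -1.73 ± 0.50 (adjusted p = 0.278) and Rfc5 -0.31 (adjusted p = 0.671). Lig1, Fen1 and Rpa2 gave -1.13, -1.12 and -0.25 (adjusted p = 0.126, 0.469 and 0.678).

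The reductase subunits differed in the same direction, Rrm2 by -1.94 ± 0.42 (adjusted p = 0.156) and Rrm1 by -0.57 ± 0.11 (adjusted p = 0.126), and Tk1 by -0.74 (adjusted p = 0.216). Dnmt1, Chaf1b and Chaf1a gave -0.55, -1.08 and -0.70 (adjusted p = 0.180, 0.279 and 0.282). The 3 members above 0 were Orc2, Gmnn and Gins4, at 0.05, 0.07 and 0.11. edgeR called no member (Cdc7 at 0.0539) and 0.0322% of all genes. DESeq2 called 8 members, Cdc7, Mcm5, Prim1, Pcna, Lig1, Rrm1, Rrm2 and Dnmt1, and 0.696% of all genes. Leaving out any 1 of the 12 libraries ended the call of Cdc7, with an adjusted p of 0.0509 to 0.165.

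Among TAC hearts, 20 of the 45 genes were lower on the BCAA-free diet than on the control diet and none was higher. In that comparison 2.11% of 16222 genes were lower and 1.27% higher. The median was -0.51, 14 of the 20 differed at least 2-fold, and the BCAA-free TAC libraries all lay below control TAC in 31 members and above it in none, against 13% and 12.6% of all genes. This comparison shares the control TAC libraries with that of TAC on the control diet, so the 2 are not independent. The 20 comprised 6 of 12 licensing genes, 3 of 8 in helicase activation, 1 of 6 polymerase subunits, 2 of 7 at the clamp, Lig1, 3 of 4 in nucleotide supply and 4 of 4 in chromatin upkeep.

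Pclaf differed most, by -3.13 ± 0.38 (adjusted p = 0.00509), 8.73-fold lower, and Uhrf1 with the smallest adjusted p, by -2.78 ± 0.19 (adjusted p = 0.000794), 6.85-fold lower. Of the licensing genes, Mcm5, Mcm3 and Mcm2 were lower by -1.86 ± 0.19, -1.24 ± 0.14 and -1.19 ± 0.15 (adjusted p = 0.00305, 0.00420 and 0.00531), and Cdc6, Cdt1 and Mcm6 by -2.30, -1.23 and -0.80. Mcm10, Cdc7 and Gins2 were lower by -2.03 ± 0.25, -1.79 ± 0.23 and -1.49 ± 0.23 (adjusted p = 0.00486, 0.00545 and 0.0117). Prim1 was lower by -1.01 ± 0.16 (adjusted p = 0.0139). Pold1 and Pola2 gave -0.33 and -0.30 without passing (adjusted p = 0.126 and 0.154).

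Pcna was lower by -0.45 ± 0.10 (adjusted p = 0.0409), the loader subunit Rfc5 gave -0.32 (adjusted p = 0.327), and Lig1 was lower by -1.32 ± 0.12 (adjusted p = 0.00302). Fen1 and Rpa1 gave -0.78 and 0.11 (adjusted p = 0.277 and 0.558). Rrm2, Tk1 and Rrm1 were lower by -2.12 ± 0.32, -0.97 ± 0.12 and -0.39 ± 0.08 (adjusted p = 0.00952, 0.00531 and 0.0311), and Tyms gave -0.85 without passing. Dnmt1 read 33.1, 33.0 and 33.0 CPM in control TAC and 19.97, 21.9 and 22.3 in BCAA-free TAC, lower by -0.56 ± 0.08 (adjusted p = 0.00859), with 25.1, 30.0 and 21.8 in control sham and 25.9, 26.5 and 23.6 in BCAA-free sham. Its BCAA-free TAC mean was thus the lowest of the 4 groups. Chaf1b and Chaf1a were lower by -1.52 ± 0.22 (adjusted p = 0.00819) and -0.89.

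edgeR called 20 members here (3.03% of all genes) and DESeq2 22 (7.32%), and the number lower in the authors' deposited table was 22. The limma count fell to 10 without control TAC replicate 2 and was 16 without replicate 3, while the count over all genes went from 548 to 138 and 242; without both of these, none of the 45, nor any other gene, passed (adjusted p of the 20 from 0.0803 to 0.335), and the members' median was -0.55.

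Between sham hearts, 2 of the 45 genes were lower on the BCAA-free diet and none was higher, where 1.76% of 15596 genes were lower and 1.05% higher. The libraries did not overlap in 4 members that were lower (Cdc6, Mcm3, Pclaf and Uhrf1) and 3 that were higher (Rpa1, Rpa2 and Rrm1), against 11.8% and 11.5% of all genes. Uhrf1 was 2.86-fold lower, by -1.52 ± 0.33 (adjusted p = 0.0347), and Pclaf 2.54-fold lower, by -1.34 ± 0.32 (adjusted p = 0.0480). The median over the 45 was -0.01. edgeR called the same 2 genes (2.98% of all genes) and DESeq2 added Mcm3 (5.21%), and 3 members were lower in the authors' deposited table.

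Of the licensing genes, Cdc6, Mcm3 and Mcm2 came next, with -1.10 ± 0.33, -0.50 ± 0.15 and -0.38 ± 0.15 (adjusted p = 0.101, 0.106 and 0.199), and 10 of 12 lay below 0. Gins2, Gins3 and Cdc45 gave -0.48, 0.32 and 0.20 (adjusted p = 0.507, 0.510 and 0.566). The polymerase subunits Pola1, Pola2 and Pold1 gave -0.35, -0.22 and 0.16 (adjusted p = 0.343, 0.345 and 0.348). Rfc4 and Rfc1 gave 0.16 and 0.08 (adjusted p = 0.607 and 0.659).

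Rpa1 and Rpa2 gave 0.21 ± 0.06 and 0.27 ± 0.10 (adjusted p = 0.0907 and 0.159), with no overlap between groups, and Fen1 0.34 (adjusted p = 0.587). Rrm1, Tk1 and Rrm2 gave 0.17, -0.24 and -0.17 (adjusted p = 0.341, 0.446 and 0.772). Chaf1b and Chaf1a gave -0.43 and -0.18 (adjusted p = 0.474 and 0.585). The 2 calls rested on few reads, 7 to 27 for Pclaf and 15 to 74 for Uhrf1 per sham library. Without any 1 of control sham replicates 1 and 2 or the 3 BCAA-free sham libraries, neither gene passed (adjusted p = 0.0834 to 0.166), and without control sham replicate 3 the count was 5, with Cdc6, Mcm2 and Mcm3 added. Between the same hearts 7 of 11 fibroblast and 4 of 14 macrophage markers were lower on the BCAA-free diet, and 2 of 9 T cell and 3 of 5 adipocyte markers were higher. Over all genes 1.76% were lower and 1.05% higher. Summed T cell markers ran from 1.89 to 5.68 CPM in control sham and 10.7 to 14.7 in BCAA-free sham, and adipocyte markers from 8.15 to 8.85 and 13.9 to 26.6. Fibroblast markers ran from 1084 to 1132 and 776 to 869 CPM, and macrophage markers from 319 to 340 and 241 to 265. Up to 2 T cell markers were at 0 reads in a control sham library, and the part of these cells in the 2 calls was not tested.

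Across the 4 groups, control TAC had the highest mean in 37 of the 45 genes, and in 24 of them all 3 of its libraries stood above the other 9, against 6.01% of the 15665 genes. In no other group did all 3 libraries stand above the other 9 for any member. The lowest mean was in BCAA-free TAC for 20 genes, BCAA-free sham for 16 and control sham for 9.

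Members with low levels in unstressed hearts had the larger responses. On a scale of CPM per kilobase of exon, levels in BCAA-free sham hearts, which take no part in the comparison of TAC on the control diet, ranged from 0.0345 (Mcm10) to 24.9 (Gmnn). Spearman's rho between that level and the log2 TAC response on the control diet was -0.76 over the 45 genes. This is a description across genes, which share libraries and depth. The same value over all genes was not computed, so whether the relation is particular to these 45 was not tested. Of the 15 lowest genes, 10 rose and the median difference was 1.36; of the middle 15, 7 rose with a median of 0.49; of the highest 15, 2 rose (Mcm6 and Pcna) with a median of 0.17. Exceptions were Orc1, low at 0.0855 with a difference of 0.25, and Pcna, high at 13.5 and past the threshold. The responses on the 2 diets, which share no library, had a Pearson r of 0.57 over the 45 genes.

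**Figure D4:**
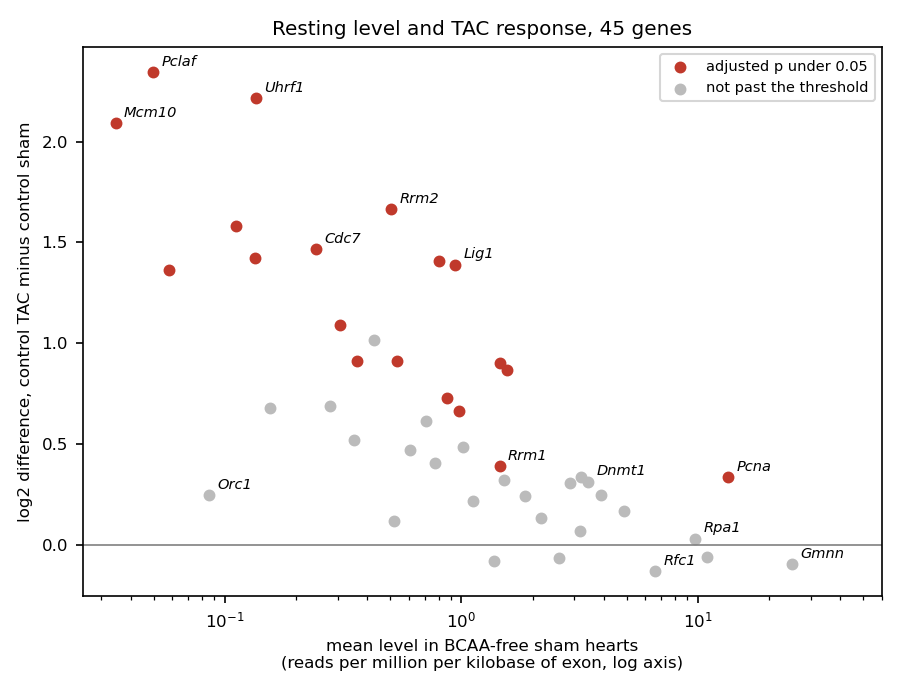
Mean level in BCAA-free sham hearts (CPM per kilobase of exon, log axis) against the log2 difference of control TAC and control sham, 1 point per gene; red points passed the test. The largest differences, above 2, belong to Mcm10, Pclaf and Uhrf1, all with levels of at most 0.135, while Gmnn, Rfc1 and Rpa1 lie near 0.

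Other genes of the pathway were taken from lists that were not picked for how they moved, though earlier results were known. With TAC on the control diet, 2 of 29 other replisome genes rose, the nuclease Exo1 by 2.90 ± 0.33 and the checkpoint mediator Clspn by 2.63 ± 0.36 (adjusted p = 0.00370 and 0.00727), and 1 of 31 other nucleotide synthesis genes, deoxycytidine kinase (Dck), by 0.68. Over all genes 3.4% rose, near the share of these 31. Of 32 G1/S regulators 6 rose, among them cyclin A2 (Ccna2) by 2.42 and E2f1, a factor that drives replication genes, by 1.92. Of 25 DNA damage genes 6 rose, among them Brca1, of homologous recombination, by 1.67. Of 33 mitotic genes 31 rose, with a median of 2.15, against 0.49 for the 45 replication genes. Fewer mitotic genes were tested without control TAC, 27 for TAC on the BCAA-free diet and 26 between sham hearts. Their medians therefore cover different sets of genes. Mitotic genes not tested there passed the filter with the control TAC libraries included. This favours a rise on the control diet and a lower value between TAC hearts for these genes. The 33 genes and the median of 2.15 include them, whereas all 45 replication genes passed the filter in every comparison.

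On the BCAA-free diet none of 25 other replisome genes, 31 nucleotide synthesis genes or 25 DNA damage genes passed with TAC by limma or edgeR. Over all genes limma called 4.32% and edgeR 4.19% in either direction. In these lists 4, 5 and 5 genes had an unadjusted p under 0.05, against 21.4% of all genes. The 25 replisome genes did not include Exo1 and Clspn, the 2 that rose on the control diet, so the response of these 2 to TAC on this diet is not known. Among 32 G1/S regulators Ccna2 rose by 1.35 ± 0.33 (adjusted p = 0.0438) and Cdkn2d, a kinase inhibitor, by 0.41. Of 27 mitotic genes tested none rose by limma or edgeR, and Cenpf fell by 0.91 by limma, while edgeR called none of them; 25 lay above 0, 12 had an unadjusted p under 0.05, and the median was 0.61. Ccna2, which is active in S phase and had the smallest p of the 32, thus passed on both diets, whereas none of the 45 replication genes did. Uhrf1, with 0.98 on the BCAA-free diet, did not pass. Whether Ccna2 differs from the 45 was not tested.

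Between TAC hearts on the 2 diets, 8 of 29 other replisome genes (Clspn by -2.96, Exo1 by -2.66), 9 of 32 G1/S regulators (Ccna2 by -2.60, E2f1 by -2.46), 5 of 25 DNA damage genes and 31 of 33 mitotic genes were lower on the BCAA-free diet. Of the 31 nucleotide synthesis genes, Dck was lower by -0.96 and Nme2, a nucleoside diphosphate kinase, higher by 0.48. Over all genes 2.11% were lower and 1.27% higher between TAC hearts. Between sham hearts, Ccna2 was lower by -1.50 and the kinase inhibitor Cdkn1a higher by 0.61, and 3 of 26 mitotic genes were lower, among them Top2a and Ube2c, by -1.54 and -1.73. Over all genes 1.76% were lower and 1.05% higher between sham hearts. In the difference of TAC responses no tested gene of these 5 lists passed by limma or edgeR, and Exo1 and Clspn were again not tested. At an unadjusted p under 0.05 stood 20 of 27 mitotic, 11 of 32 G1/S, 8 of 25 replisome, 7 of 25 DNA damage and 4 of 31 nucleotide synthesis genes. Over all genes the share was 10.1%, and the 4 of 31 lie near it. All 27 mitotic genes lay below 0 there, with a median of -1.42.

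**Figure D5:**
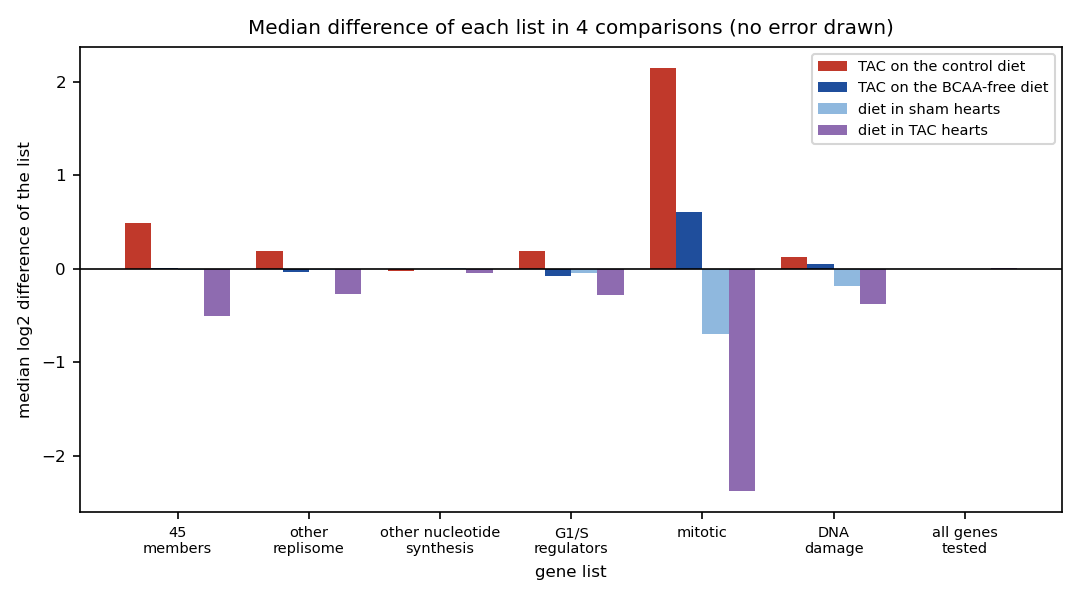
Median log2 difference of the 45 genes, of 5 lists of related genes and of all genes tested in the 4 pairwise comparisons; no error is drawn. The 45 genes have 0.49 and 0.01 for TAC on the control and BCAA-free diets, the mitotic genes 2.15 and 0.61, and all genes lie at 0.00. The mitotic medians cover 33 genes on the control diet and 27 on the BCAA-free diet, and those of other replisome genes 29 and 25.

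Markers of cell types that can divide were read in the same libraries. Summed macrophage markers (14 of 14 listed) ran from 319 to 340 CPM in control sham, 351 to 571 in control TAC, 241 to 265 in BCAA-free sham and 425 to 533 in BCAA-free TAC. With TAC 1 of the 14 rose on the control diet by limma and none by edgeR, and 13 rose on the BCAA-free diet by both. Summed fibroblast markers (11 of 11) ran from 1084 to 1132, 1643 to 3314, 776 to 869 and 1410 to 3000 CPM in the same order. Replicate 1 was the highest in both TAC groups. Control TAC replicates 1, 2 and 3 held 3314, 1643 and 1701 CPM, and those of BCAA-free TAC 3000, 1692 and 1410. With TAC 5 fibroblast markers rose and 1 fell on the control diet, and 8 rose and none fell on the BCAA-free diet. Over all genes 3.4% rose and 1.94% fell on the control diet, and 4.32% were called in either direction on the BCAA-free diet by limma. The macrophage and fibroblast sums lay above those of sham hearts on the same diet in all TAC libraries of both diets. Endothelial markers (10 of 10) ran from 1582 to 1895, 1433 to 1599, 1376 to 1566 and 1282 to 1439 CPM, and 2 of the 10 fell with TAC on each diet. Summed T cell markers read 13.5, 1.64 and 2.73 CPM in BCAA-free TAC replicates 1, 2 and 3, against 10.7 to 14.7 in BCAA-free sham. All 9 lay below 0 with TAC on that diet, and 1 fell by limma (Il7r). In control TAC they ran from 2.67 to 2.95 CPM (8 of 9 listed), against 1.89 to 5.68 in control sham, and none was called. No macrophage, fibroblast or endothelial marker was at 0 in any library. The part of any of these cell types in the replication gene differences was not tested.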

How the data were processed

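The tools named, per the submitters' processing notes, are DESeq2, Subread 1.5.2, STAR 2.5.2b and Trimmomatic 0.36, and the build is GRCm38 (mm10); settings were not found in the labels or headers. The authors deposited 4 tables, 1 per pair of groups. Per the file headers, their fold change column holds log2 values and stands beside p-values. The deposited library columns hold a signal: each gene's reads scaled by a library's size factor, which differs between tables. Dividing by the value of 1 read gave whole reads for 100% of values (tolerance 0.001), with 0 genes differing between tables. These gave CPM, and CPM per kilobase of GENCODE M21 exons. CPM intervals were not used, since reads without molecular identifiers are not independent molecules.

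Each pairwise comparison was tested within its table with limma 3.58.1 (R 4.3.3, intensity trend) on log2(value + 4), which understates changes of low genes, after a filter that kept genes averaging 10 or more. The difference of TAC responses used the 12 columns of both TAC tables. Benjamini-Hochberg adjustment ran over every gene in the fit, and an adjusted p under 0.05 was called. edgeR 4.0.16 and DESeq2 1.42.0 were run on the recovered reads as alternatives. The limma fit was tested on simulated counts with the same spread set for every gene, and the pass check covered the pairwise comparisons only. It does not show how the fit performs at the spread of these libraries or for the difference of TAC responses. The 45 genes, the lists and the tests were chosen with earlier results of these data known. Statistics are given for the 3 members of each role with the smallest p in each comparison, and library values for the 2 with the smallest p for the difference of TAC responses and for TAC on the control diet. From each list of related genes up to 2 are named by smallest p; members with other values are named to account for all 45. No 2 libraries of a group agreed within sampling noise.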

Additional observations from a re-analysis of the deposited data

Results flagged for a closer look

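Cdc7, the kinase that starts the Mcm helicase, is listed here because its TAC responses on the 2 diets differed in a direct test over all 12 libraries. The difference was -1.97 on the log2 scale (limma, adjusted p = 0.0433). All 3 control TAC libraries lay above control sham, and all 3 BCAA-free TAC libraries lay below BCAA-free sham. It rested on 21 to 129 reads per library. The call was lost by edgeR (adjusted p = 0.0539) and held by DESeq2 (0.000437).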

How the results depend on the processing

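Each called member kept its sign under every alternative in which it was tested. Members that had not passed could change sign, as Rrm2 did for TAC on the BCAA-free diet (-0.66 to 0.05 without 1 library), and so could medians near 0 (-0.03 to 0.05 for that comparison and -0.08 to 0.03 for the diet in sham hearts). For TAC on the control diet, leaving out 1 library gave 11 to 17 members past the threshold, and leaving out control TAC replicates 2 and 3 together gave 12; the other alternatives gave 16 to 22. For TAC on the BCAA-free diet the count was 0 under every alternative. For the diet in sham hearts it was 1 with a pseudocount of 1 (Pclaf at 0.0513) and 1 with quantile normalization, 0 with a mean of at least 50, where both called genes were no longer tested, and 0 to 5 without 1 library. For the diet in TAC hearts it was 10 to 21 without 1 library and 0 without control TAC replicates 2 and 3, which leaves 1 library in that group, assumed to vary like the other group. The difference of TAC responses gave 0 members with a pseudocount of 1 (Cdc7 at 0.0517), a mean of at least 50 (Cdc7 not tested), quantile normalization (0.0556), edgeR (0.0539) or both libraries left out (0.198), 0 to 1 without 1 library (only Rrm2, without BCAA-free TAC replicate 1), and 8 with DESeq2. Apart from the genes no longer tested, the cause was not tested.

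Replicate numbers are shared across groups. Same-numbered libraries correlated by -0.09 to 0.22 in their deviations from the group means, and differently numbered ones by -0.17 to 0.10. The highest, 0.22, was between replicate 1 of the 2 TAC groups. Such correlations over all genes cannot decide whether the numbers pair libraries. With the replicate block, 19, 0, 2 and 23 members passed in the 4 pairwise comparisons and 0 in the difference (Cdc7 at 0.112). For TAC on the control diet, Rrm1 (0.0583) was lost and Cdt1 gained. Over all genes, the block moved the count from 848 to 805 for TAC on the control diet. For TAC on the BCAA-free diet it went from 688 to 525. It rose from 438 to 713 for the diet in sham hearts and from 548 to 1275 for the diet in TAC hearts. Precision is limited for members of few reads: Mcm10 and Pclaf held as few as 5 and 7 reads in a library, and 3 libraries per group leave wide intervals.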
